A study of Mus musculus with 2 samples.

Results

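The AP-1 transcription factors measured here were Fos, Fosb, Fosl1, Fosl2, Jun, Junb, Jund, Atf3 and Batf, taken as the gene-probe spots whose gene name on the array equals one of these symbols. They were 9 of 27975 genes and unnamed transcripts on the array, read by 11 of 41174 distinct probes in 29 spots per array. Regulatory T cells (Tregs), the suppressive CD4 lineage defined by the forkhead factor Foxp3, lacking the zinc finger factor Bcl11b, were compared with wild-type Tregs, all on the C57BL/6 background. One array compared Bcl11bF/F/Cd4Cre/Foxp3-GFP+ cells, in which the Cre recombinase acts in developing T cells, with wild-type cells sorted for the same Foxp3-GFP reporter. The other compared Bcl11bF/F/Foxp3Cre cells, in which Cre acts in cells that already express Foxp3, with wild-type cells. Each wild-type pool held cells of 3 mice, and the labels give no number of mice for the deficient pools, no age and no treatment. The Cd4Cre array was recognised by the Foxp3-GFP label, which the series' design gives for that Cre system, and the Foxp3Cre array by the absence of it. Cd4Cre also acts in cells that become conventional CD4 and CD8 T cells, so the sort alone makes that deficient pool a Treg pool.

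AP-1 is a family of dimers of basic leucine zipper (bZIP) proteins. Fos proteins pair with Jun proteins through the zipper, while Jun proteins can also pair with each other, and the dimers bind DNA sequences such as TGANTCA. Fos, Fosb, Jun, Junb and Atf3 are immediate early genes: their transcripts appear within minutes of a T cell receptor or stress signal, through MAP kinases acting on serum response factor and CREB-type factors, and Fos transcripts decay fast. In T cells AP-1 binds composite sites together with NFAT, and Batf with Jun proteins and Irf4 drives effector programmes, including those of Tregs in tissues.

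The promoters of 5 members are shown because Fos, Fosb, Jun and Atf3 had the lowest ratios on the Cd4Cre array and Batf the one nearest to 0. Each sequence is the stretch of 250 bases before the RefSeq transcription start in the GRCm38.p6 build, on the strand of the gene, and capitals mark TGACG, the core of one side of the CREB-type site, on either strand.
Fos: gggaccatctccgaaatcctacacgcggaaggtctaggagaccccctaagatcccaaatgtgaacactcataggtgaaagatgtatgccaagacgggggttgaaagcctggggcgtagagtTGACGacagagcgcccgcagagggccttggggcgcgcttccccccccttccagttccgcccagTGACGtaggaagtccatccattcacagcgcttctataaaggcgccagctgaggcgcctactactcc
Fosb: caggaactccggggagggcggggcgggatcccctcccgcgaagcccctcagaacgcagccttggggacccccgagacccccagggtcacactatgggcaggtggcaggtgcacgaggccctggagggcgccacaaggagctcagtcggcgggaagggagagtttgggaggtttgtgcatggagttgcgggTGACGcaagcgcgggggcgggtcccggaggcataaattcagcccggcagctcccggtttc
Jun: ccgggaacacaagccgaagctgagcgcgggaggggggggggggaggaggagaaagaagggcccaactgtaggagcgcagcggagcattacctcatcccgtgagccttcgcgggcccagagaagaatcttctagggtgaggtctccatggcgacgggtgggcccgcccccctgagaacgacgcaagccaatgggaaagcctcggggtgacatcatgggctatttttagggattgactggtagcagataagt
Atf3: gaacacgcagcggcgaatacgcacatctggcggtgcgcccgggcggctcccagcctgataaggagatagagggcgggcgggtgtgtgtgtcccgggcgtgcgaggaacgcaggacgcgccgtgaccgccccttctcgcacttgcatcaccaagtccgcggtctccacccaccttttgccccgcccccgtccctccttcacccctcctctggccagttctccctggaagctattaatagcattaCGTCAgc
Batf: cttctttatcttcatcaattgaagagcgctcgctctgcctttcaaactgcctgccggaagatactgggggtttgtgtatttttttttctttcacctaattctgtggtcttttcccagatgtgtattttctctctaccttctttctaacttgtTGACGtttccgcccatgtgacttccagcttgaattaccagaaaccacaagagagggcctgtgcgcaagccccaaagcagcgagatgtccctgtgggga
The Fos stretch lies at chr12:85473640-85473889 (plus strand), the Fosb stretch at chr7:19310046-19310295 (minus strand), the Jun stretch at chr4:95052223-95052472 (minus strand), the Atf3 stretch at chr1:191183334-191183583 (minus strand) and the Batf stretch at chr12:85686470-85686719 (plus strand). TGACG was found in 5 of the 8 members' promoters that the RefSeq table holds: Fos, Fosb, Atf3, Batf and Junb. In Fos its first bases lay 129 and 66 bases before the start. Of all 32851 promoters of the same length, 17.8% hold this motif. The Jun stretch does not hold these letters, so the motif was neither common to the 4 low members nor restricted to them. On both strands, the AP-1 pattern TGANTCA was found in none of the 8, against 6.75% of all promoters, and the CArG box of serum response factor in none, against 1.47%. The full CREB-type site TGACGTCA, which contains TGACG, was found in none either, against 1.55%. The Jun stretch holds tgacatca, which is longer than the pattern TGANTCA allows and was not searched for. Bases further upstream than 250 were not searched, so these counts do not show that the members lack such sites.

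Deficient RNA was labelled with Cy5 and wild-type RNA with Cy3 throughout, without a dye swap, so a dye bias would run the same way on both arrays. Values are log2 ratios, deficient pool over wild-type pool, unless a signal is named, and 2-fold is a log2 ratio of 1 in either direction. With 1 array per Cre system, single-array differences have no replicates behind them and no p-value is given for them. The error given with a ratio is the scanner software's error for its own ratio of that spot. Repeated spots of one probe differed with a median SD of 0.056 (Cd4Cre) and 0.071 (Foxp3Cre). Of the 43379 gene-probe spots, 20689 to 21773 were well above background in the deficient channel and 23446 to 24439 in the wild-type channel, and 0 were saturated. The targeted gene, Bcl11b, was lower in the deficient pool of each array, at -2.46 for Cd4Cre and -1.82 for Foxp3Cre at its brighter probe, and at -1.19 and -0.32 at its other probe. Foxp3, which defines the labelled cell type, was well above background in all 4 pools, with a log2 signal of 8.93 in the deficient pool against 12.50 in the wild-type pool for Cd4Cre and 9.82 against 10.02 for Foxp3Cre. Its ratios were -3.57 and -0.20, so the label of the Cd4Cre deficient pool is not borne out by this transcript at the level of its wild-type pool.

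On the Cd4Cre array, 6 of the 8 AP-1 members detected were lower by 2-fold or more in deficient cells and none was higher by as much. Of the 15872 detected genes, 10.6% were lower and 11.4% higher by 2-fold or more. The members' median was -2.10, against -0.05 over all detected genes. On the Foxp3Cre array, 2 of the same 8, Junb and Jund, were lower by that margin and none higher, where 11.5% and 2.94% of 15189 detected genes were. The members' median in the Foxp3Cre comparison was -0.38, against -0.08 over all detected genes. Fosl1, the Fos family member FRA-1, was not well above background in either channel of either array and stays out of these counts.

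**Figure D1:**
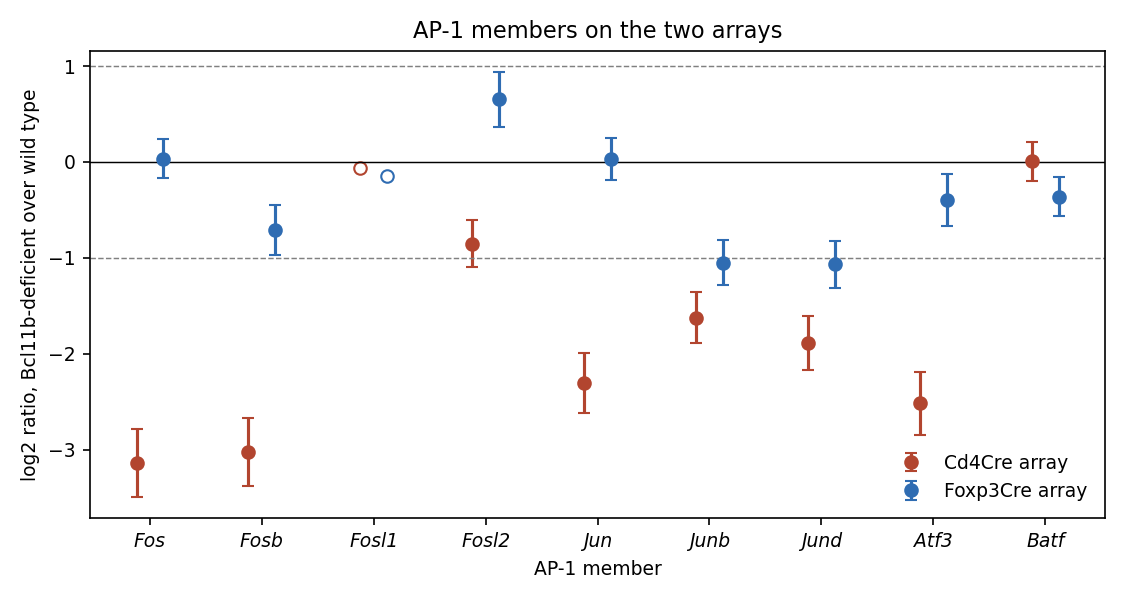
Log2 ratio of the deficient over the wild-type pool (vertical axis) for each AP-1 member (horizontal axis), Cd4Cre array in red and Foxp3Cre array in blue. Points are loess-normalised ratios of the brightest probe, bars the scanner software's error for 1 array, open circles (Fosl1) a probe not well above background, and dashed lines 2-fold; 6 of the filled red points and 2 of the filled blue points lie under the lower line.

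Among the members, the largest differences on the Cd4Cre array were those of Fos and Fosb. The Fos probe, at chr12:86817900-86817959 (mm9, plus strand), had a log2 signal of 13.15 in the Cd4Cre deficient pool against 16.28 in the Cd4Cre wild-type pool, and of 13.36 in the Foxp3Cre deficient pool against 13.33 in the Foxp3Cre wild-type pool. The Cd4Cre wild-type pool thus stood alone and the other 3 pools lay within 0.22 of each other. The ratio was -3.14 ± 0.35 (8.79-fold lower) for Cd4Cre and 0.03 ± 0.20 for Foxp3Cre. Both depend on the scaling, since median centring in place of loess gave -2.36 and 0.59. This probe was spotted 10 times on each array, and after spots with an outlier flag were left out, the 9 remaining ratios of the Cd4Cre array ran from -3.16 to -3.12 (SD 0.013) and the 7 of the Foxp3Cre array from 0.02 to 0.05 (SD 0.014). The spread between spots was therefore far under the difference on the Cd4Cre array, although it measures spotting alone and not the mice.

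Fosb, a close relative of Fos with similar induction kinetics, was read at chr7:19888477-19888536 (mm9, minus strand). Its log2 signal was 10.82 in the deficient pool against 13.84 in the wild-type pool on the Cd4Cre array, and 8.65 in the deficient pool against 9.36 in the wild-type pool on the Foxp3Cre array. The deficient pool was the lower on both arrays, with ratios of -3.02 ± 0.36 and -0.71 ± 0.26. The Foxp3Cre wild-type signal minus the Cd4Cre wild-type signal was -4.49, larger in size than either ratio.

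Fosl2, the Fos family member FRA-2, had 2 probes. The brighter one, at chr5:32455088-32455147 (mm9, plus strand), had a log2 signal of 8.94 in the deficient pool against 9.79 in the wild-type pool on the Cd4Cre array, and of 9.11 in the deficient pool against 8.46 in the wild-type pool on the Foxp3Cre array. Its ratios had opposite signs, -0.85 ± 0.24 and 0.65 ± 0.28, both under 2-fold. The other probe, at chr5:32459624-32459683, read -0.18 on the Cd4Cre array and was not well above background on the Foxp3Cre array, so the probes disagree in size. The scanner software's own ratios of the brighter probe, -1.19 and 1.02, both pass 2-fold.

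Of the Jun family, Jun resembled Fos in that the Cd4Cre wild-type pool had the highest signal. The probe of Jun, the classical partner of Fos, at chr4:94715864-94715923 (mm9, minus strand), had a log2 signal of 9.94 in the deficient pool against 12.24 in the wild-type pool on the Cd4Cre array, and of 9.60 in the deficient pool against 9.57 in the wild-type pool on the Foxp3Cre array. As for Fos, the Cd4Cre wild-type pool was high and the other 3 were close together. The ratio was -2.30 ± 0.31 (4.93-fold lower) and 0.03 ± 0.22. Of its 10 spots, the 9 without an outlier flag ran from -2.37 to -2.26 on the Cd4Cre array, and all 10 ran from -0.03 to 0.12 on the Foxp3Cre array.

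**Figure D2:**
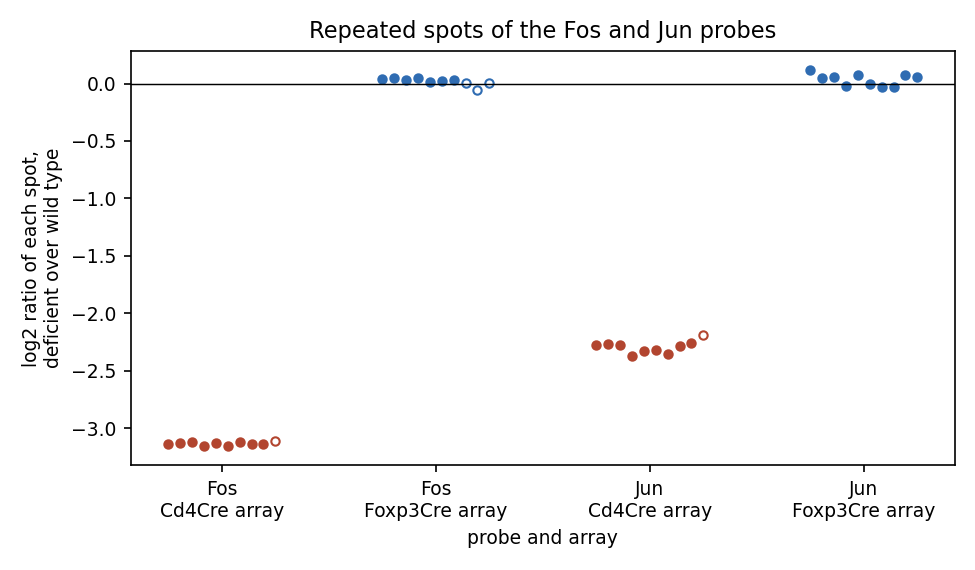
Log2 ratio of each of the 10 repeated spots (vertical axis) of the Fos and Jun probes on each array (horizontal axis), filled circles for spots used and open circles for spots with an outlier flag. The spots of the Cd4Cre array lie near -3.14 for Fos and -2.30 for Jun, and those of the Foxp3Cre array near 0 for both, with no overlap between arrays.

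Junb and Jund were lower on both arrays. Junb, a Jun protein that pairs with Batf in T cells, was read at chr8:87500881-87500940 (mm9, minus strand) with a log2 signal of 16.77 in the deficient pool against 18.39 in the wild-type pool on the Cd4Cre array, and of 16.02 in the deficient pool against 17.07 in the wild-type pool on the Foxp3Cre array. The ratios were -1.62 ± 0.27 and -1.05 ± 0.24, and its other probe, at chr8:87500843-87500902, read -1.79 and -0.87. Jund, the Jun protein that is made constitutively, was read at chr8:73224436-73224495 (mm9, plus strand) with 15.97 in the deficient pool against 17.86 in the wild-type pool on the Cd4Cre array, and 16.25 in the deficient pool against 17.32 in the wild-type pool on the Foxp3Cre array. Its ratios were -1.89 ± 0.28 and -1.07 ± 0.24. For both genes the deficient pools lay under both wild-type pools.

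The values of Junb and Jund rest on the correction of the dye ratio with brightness. Before normalization the brighter Junb probe had nearly equal intensities above background on the Cd4Cre array, 198779 in the deficient pool against 197812 in the wild-type pool, and Jund had 96689 against 133978. Loess, which centres the ratio of probes of like brightness on 0, lowered the median-centred log2 ratio by 1.57 for Junb and by 1.36 for Jund on this array, and by 1.29 and 1.33 on the Foxp3Cre array. With median centring in place of loess, Junb read -0.05 and 0.24 and Jund -0.53 and 0.26 on the Cd4Cre and Foxp3Cre arrays, so neither was 2-fold lower and the sign turned on the Foxp3Cre array. The scanner software's ratios, also dye-normalised, were -1.93 and -1.28 for Junb and -2.10 and -1.39 for Jund.

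Atf3, a stress-induced bZIP protein that can repress its targets, was read at chr1:192994547-192994606 (mm9, minus strand). Its log2 signal was 10.07 in the deficient pool against 12.58 in the wild-type pool on the Cd4Cre array, and 8.58 in the deficient pool against 8.97 in the wild-type pool on the Foxp3Cre array. The ratios were -2.52 ± 0.33 (5.72-fold lower) and -0.40 ± 0.27. Batf, the partner of Jun proteins at sites shared with Irf4, was read at chr12:87049872-87049929 (mm9, plus strand) with 15.38 in the deficient pool against 15.37 in the wild-type pool on the Cd4Cre array and 14.38 in the deficient pool against 14.74 in the wild-type pool on the Foxp3Cre array. Its ratios of 0.01 ± 0.20 and -0.36 ± 0.21 were under 2-fold on both arrays, but median centring gave 0.93 and 0.46, so its sign on the Foxp3Cre array depends on the scaling.

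**Figure D3:**
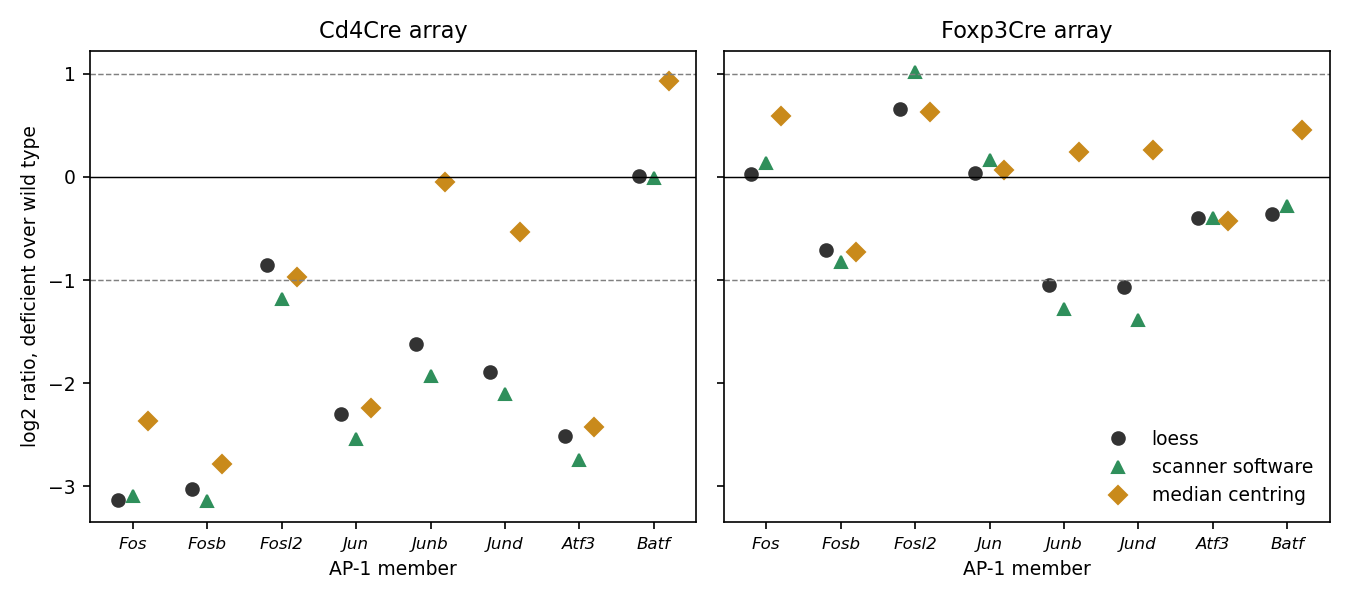
Log2 ratio of the deficient over the wild-type pool (vertical axis) for 8 AP-1 members (horizontal axis) with loess, the scanner software's ratio and median centring, Cd4Cre array left and Foxp3Cre array right, dashed lines at 2-fold. Fos, Fosb, Jun and Atf3 stay under the lower line on the Cd4Cre array with all 3, while Junb and Jund lie above it with median centring.

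The members can be grouped by their values, which are descriptions and not tested classes. Fos, Fosb, Jun and Atf3 were lower by 2-fold or more on the Cd4Cre array and under 2-fold on the Foxp3Cre array, 4 of 8, where 6.37% of 14374 genes detected on both arrays were. Junb and Jund were lower by 2-fold or more on both, 2 of 8, where 4.56% of these genes were. None was higher by 2-fold or more on both, where 1.34% of these genes were. Fosl2 and Batf were under 2-fold on both. In the Cd4Cre comparison, 4 of 8 members were lower by 2-fold or more with median centring, where 8.31% of detected genes were, and 7 of 8 with the scanner software's ratio, where 18.7% were. For the Foxp3Cre array the members' counts were 0 with median centring and 2 with the software's ratio, where 6.72% and 13.3% of detected genes were. None was higher by 2-fold or more on the Cd4Cre array, where 18.0% and 15.1% of detected genes were. For the Foxp3Cre array 0 and 1 (Fosl2) were higher by as much, where 13.5% and 7.60% of detected genes were. The difference between the Cre systems could not be tested, since each was measured once.

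**Figure D4:**
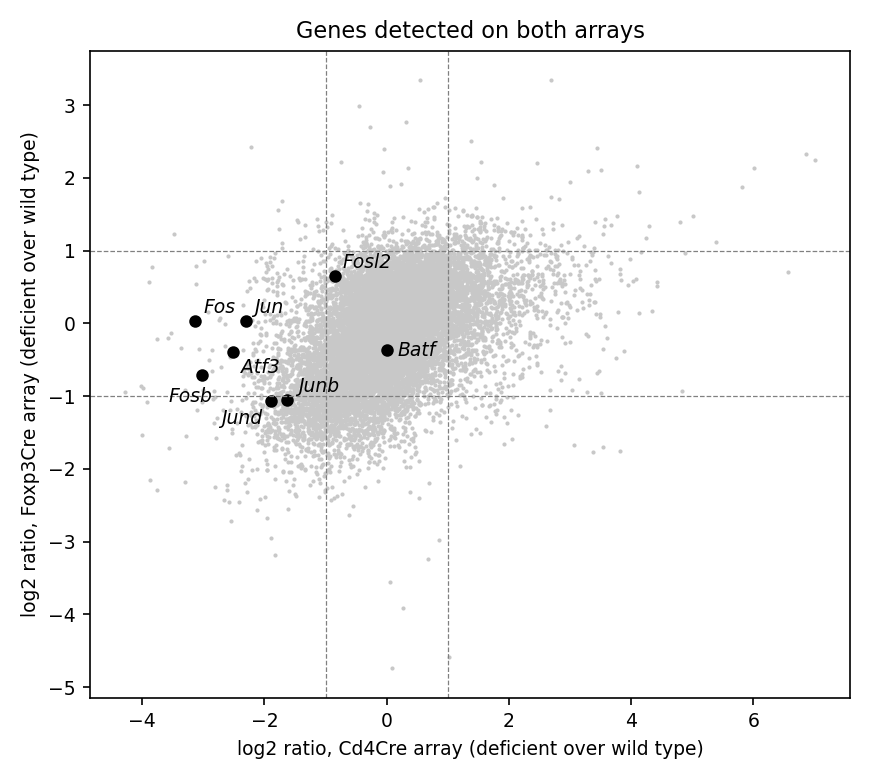
Log2 ratio on the Foxp3Cre array (vertical axis) against that on the Cd4Cre array (horizontal axis) for 14374 genes detected on both (grey), with 8 AP-1 members in black and dashed lines at 2-fold. Fos, Fosb, Jun and Atf3 lie left of the lower limit at middle height, Junb and Jund lie beyond it on both axes, and Batf lies near the centre.

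Across the 4 pools, in a comparison chosen after the values were seen, the order of signals set the Cd4Cre wild-type pool apart. All 8 detected members had a lower signal in the Foxp3Cre wild-type pool than in the Cd4Cre wild-type pool, and 6 of them by at least 1 on the log2 scale. The difference, Foxp3Cre minus Cd4Cre wild type, was -2.95 for Fos, -4.49 for Fosb, -1.34 for Fosl2, -2.67 for Jun, -1.31 for Junb and -3.61 for Atf3. It was -0.55 for Jund and -0.63 for Batf. Of 15502 genes well above background in the Cd4Cre wild-type pool, 9.56% were lower by at least 1. Relative to the Cd4Cre wild-type pool, the members' median signal was -2.10 in the Cd4Cre deficient pool, -2.50 in the Foxp3Cre deficient pool and -2.00 in the Foxp3Cre wild-type pool. For Fos and Jun the Foxp3Cre deficient signal minus the Cd4Cre deficient signal was 0.22 and -0.34, with no measure of the error between slides. For Fosb and Atf3 it was -2.17 and -1.49, so both Foxp3Cre pools lay under the Cd4Cre deficient pool. These wild-type pools were on different slides, scanned with different software versions, and the labels name the GFP reporter for the Cd4Cre one alone, so slide, sort and mice cannot be told apart. Other lists differed between the wild-type pools too: 9 of 10 tissue Treg genes and 5 of 6 Treg markers were lower by at least 1 in the Foxp3Cre one. In the same difference Foxp3 read -2.48, and the median was -1.88 over the Treg markers and 1.58 over 2 CD8 T cell markers. Over 6 neutrophil and monocyte markers it was 2.03, although 1 of them was lower by at least 1. The median was 0.71 over the NK cell, 0.63 over the B cell, -0.56 over the T cell and -1.19 over the mast cell markers. The part of these cells in the difference was not tested.

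**Figure D5:**
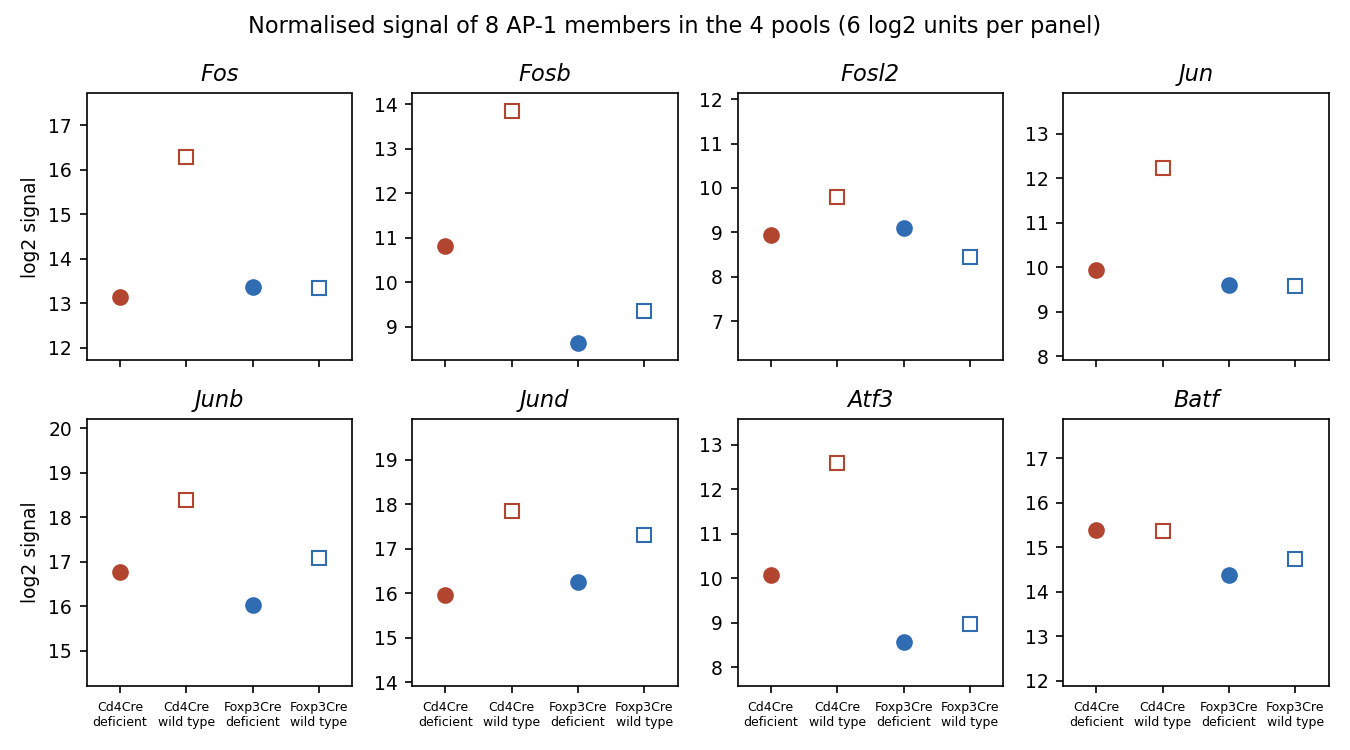
Normalised log2 signal (vertical axis, 6 log2 units per panel) of 8 AP-1 members in the 4 pools (horizontal axis), filled circles for deficient and open squares for wild-type pools, Cd4Cre in red and Foxp3Cre in blue. In the panels of Fos, Fosb, Jun and Atf3 the red square stands 2.30 or more above every other pool; levels of different genes cannot be compared, since each is a different probe.

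The mean over both arrays was tested against 0 in limma, with the difference between Cre systems counted as spread. At a threshold of 0.05 on the p adjusted by Benjamini-Hochberg, it called 0 of 14374 genes, and 3254 had an unadjusted p under 0.05. Jund had a mean of -1.48 ± 0.36 (SE, adjusted p = 0.1), Junb of -1.34 ± 0.34 (adjusted p = 0.101) and Fosb of -1.87 ± 0.52 (adjusted p = 0.11), all lower on 2 of 2 arrays. Atf3 had a mean of -1.46 ± 0.50 (adjusted p = 0.147), also lower on both. Fos, with -1.55 ± 0.65 (adjusted p = 0.205), and Jun, with -1.13 ± 0.52 (adjusted p = 0.246), were lower on 1 of 2 arrays. Fosl2 averaged -0.10 ± 0.42 (adjusted p = 0.915) and Batf -0.18 ± 0.33 (adjusted p = 0.785). None of the members passed the threshold, and over the other settings tried their lowest adjusted p was 0.06, for Jund.

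Other immediate early genes were in part lower beside the AP-1 members. On the Cd4Cre array 6 of 17 detected genes of this list were lower by 2-fold or more and 1 higher by 2-fold or more, with a median of -0.82. Of all detected genes 10.6% were lower and 11.4% higher by as much. Nr4a1, an orphan nuclear receptor that reports T cell receptor signals, read -2.82, Dusp1, a phosphatase that switches off MAP kinases, -2.65, Klf4 -2.19 and Nr4a2 -2.16. Ier3 was the higher one at 1.63. In the Foxp3Cre comparison 3 of 16 were lower by 2-fold or more, Nr4a1 at -1.36, Ier2 at -1.28 and Btg2 at -1.02, and Ier3 again higher at 1.06. Among all detected genes 11.5% were lower and 2.94% higher there. With median centring 4 were lower and 3 higher for Cd4Cre, with a median of -0.13, and 0 lower and 1 higher for Foxp3Cre, with a median of 0.03 in place of -0.44. Under that scaling 8.31% of all detected genes were lower and 18.0% higher for Cd4Cre, and 6.72% lower and 13.5% higher for Foxp3Cre. The wild-type pools differed here too: 7 of the 17 genes well above background in the Cd4Cre wild-type pool were lower by at least 1 in the Foxp3Cre wild-type pool, beside 9.56% of all such genes. The Egr genes of this list differed on the Cd4Cre array. Egr1 read -1.425 (-0.925 with median centring), while Egr2 and Egr3, which respond to calcium and NFAT in T cells, read 0.01 and 0.25. All were named after their values were seen.

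Upstream of AP-1, MAP kinases relay receptor and stress signals. Of 18 MAP kinase pathway genes, 2 were lower by 2-fold or more on the Cd4Cre array and none higher, with Map2k7, the kinase that activates JNK, at -1.29 (another of its probes -0.27) and Map3k1 at -1.24. All detected genes had 10.6% lower and 11.4% higher by as much, so the lower count is near the general share. On the Foxp3Cre array 6 were lower by 2-fold or more, where 11.5% of all detected genes were, with a median of -0.88. These 6 included Map2k7 (-1.64), Mapkapk2, the kinase downstream of p38 (-1.59), Rps6ka1 (-1.53) and Mapk8, which encodes JNK1 (-1.31). The probes of Mapk8 disagreed, since another read 0.75. With median centring the list's median was 0.20 (Cd4Cre) and -0.31 (Foxp3Cre). By that scaling 1 and 4 genes were lower by 2-fold or more, where 8.31% and 6.72% of all detected genes were. Of 7 detected genes of the serum response factor group, 2 were lower by 2-fold or more on each array: Mef2d, a factor of immediate early promoters, at -2.53 and -1.46, and Mrtfa, a coactivator of serum response factor, at -1.42 and -1.19. Other probes of Mef2d read up to -0.75 and -0.11. With median centring the counts of lower genes were 1 and 0, and with the mean over probes the Foxp3Cre count was 0. For the MAP kinase list the mean over probes gave a Cd4Cre count of 1 in place of 2. Srf itself read -0.88 and -0.93.

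Among DNA-binding partners, 4 of 10 detected genes were lower by 2-fold or more on the Cd4Cre array and 3 of 11 on the Foxp3Cre array, with none higher. All detected genes had 10.6% lower and 11.4% higher on the Cd4Cre array, and 11.5% lower and 2.94% higher on the Foxp3Cre array. On the Cd4Cre array the lower partners were Nfat5 (-1.40), the NF-kappaB subunit gene Rela (-1.19), Nfatc2 (-1.15) and Ets1 (-1.15). In Foxp3Cre cells they were the TGF-beta mediator Smad3 (-1.58), Rela (-1.55) and Nfatc1 (-1.05). Probes of 3 of these disagreed on the Cd4Cre array, with others at 0.53 for Nfat5, -0.23 for Nfatc2 and -0.10 for Ets1. With the mean over probes 1 gene in place of 4 was lower by 2-fold or more there. On the Foxp3Cre array other probes read -0.555 for Smad3 and -0.389 for Nfatc1, under 2-fold. With median centring, 2 were lower and 2 higher on the Cd4Cre array, beside 8.31% and 18.0% of all detected genes. By that scaling 3 were lower on the Foxp3Cre array, beside 6.72%. Irf4, the partner of Batf, read -0.78 and -0.29.

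Of 15 bZIP relatives, 4 were lower by 2-fold or more and 3 higher by 2-fold or more on the Cd4Cre array, beside 10.6% and 11.4% of all detected genes. The small Maf protein gene Maff read -3.52, lower than any AP-1 member, and Bach2, a repressor that competes with AP-1 at its sites, read -2.21. Batf3, a relative of Batf that dendritic cells also need, read 2.55, and Bach1 1.31. On the Foxp3Cre array Bach2 (-1.42) was the single relative past 2-fold, beside 11.5% of all detected genes lower and 2.94% higher. With median centring Bach2 read -0.97. The list's median was -0.37 and -0.05, and with median centring 0.25 and 0.02.

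Genes that regulate AP-1 mRNA and protein turnover were mostly under 2-fold. On the Cd4Cre array, 2 of 9 were lower by 2-fold or more and none higher, beside 10.6% and 11.4% of all detected genes. They were Zfp36, which binds AU-rich mRNAs such as that of Fos and marks them for decay (-2.26), and its relative Zfp36l1 (-1.76). The other Zfp36 probe read -0.95, under 2-fold. The Zfp36l1 value depends on the scaling, with -0.73 under median centring. By its brightest probe none passed 2-fold on the Foxp3Cre array, where 11.5% of all detected genes were lower and 2.94% higher by as much. Other probes read -1.60 for Fbxw7 and -1.29 for Itch there, and -1.60 for Cops5 and -1.10 for Itch on the Cd4Cre array. With the mean over probes 1 gene was lower by 2-fold or more on the Foxp3Cre array. With median centring 1 was higher there, beside 13.5% of all detected genes.

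Genes with reported AP-1 sites differed in both directions. In the Cd4Cre comparison, 6 of 11 detected were higher by 2-fold or more and 2 lower by 2-fold or more, with a median of 1.07 (1.14 with median centring). Of all detected genes 11.4% were higher and 10.6% lower by as much. With the mean over probes the list's count of higher genes was 4 in place of 6. Csf2, the GM-CSF gene, was at least 5.14-fold higher, given as a bound because the wild-type channel was not well above background and was set at the lowest signal that was. The metallothionein gene Mt2 read 2.27 and Ccnd1, the cyclin D1 gene, 2.16. The lower ones were Hmox1, the heme oxygenase gene (-2.92), and Cd69, the early activation marker (-1.95), the last named after its values were seen. In the Foxp3Cre comparison 1 of 10 was higher by 2-fold or more, Il4 at 1.46, and none lower, beside 2.94% and 11.5% of all detected genes. The list's median there was 0.51. That count of higher genes was 2 with median centring and 3 with the software's ratio, where 13.5% and 7.60% of all detected genes were higher.

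Of 10 detected genes linked to Batf in tissue Tregs, 5 were lower by 2-fold or more and 1 higher by 2-fold or more on the Cd4Cre array, beside 10.6% and 11.4% of all detected genes. The suppressive cytokine gene Il10 was at least 14.3-fold lower and the growth factor gene Areg at least 2.33-fold lower, both bounds, and the chemokine receptor gene Ccr8 read -1.17, while the nuclear receptor gene Rora read 1.20. In Foxp3Cre cells none of 9 was 2-fold lower and 2 were higher, the receptor genes Klrg1 (1.54) and Il1rl1 (1.49), beside 11.5% and 2.94% of all detected genes. The list's median was -0.96 and 0.59, and -0.70 and 0.79 with median centring. The Cd4Cre count of 5 became 3 without background subtraction and 2 of 7 where all 4 channels had to be well above background. The Foxp3Cre count of 2 became 4 with the software's ratio and 1 with the mean over probes. Batf itself read close to 0 on the first and slightly below on the second.

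Markers of Tregs, of other cells and of stress also differed between the pools. On the Cd4Cre array 5 of 6 Treg markers were lower by 2-fold or more, where 10.6% of all detected genes were lower and 11.4% higher. Higher by 2-fold or more were 5 of 6 NK cell, 7 of 8 neutrophil and monocyte, 2 of 2 CD8 T cell and 2 of 5 B cell markers, while Csf1r, a monocyte marker, was lower at -1.50. The Foxp3Cre array had 1 of 6 NK cell and 5 of 8 neutrophil and monocyte markers higher by as much, with Csf1r lower at -1.20. Among all genes detected on this array 11.5% were lower and 2.94% higher by 2-fold or more. There 0 of 6 Treg markers were lower and 1, Ctla4, was higher at 1.22 (3 of 6 higher with median centring), and 1 of 5 B cell markers, Cd22, was lower at -1.06. Ctla4 and Cd22 were named after their values were seen. The mean log2 signal of the Treg markers was 11.39 in the deficient pool against 14.24 in the wild-type pool, and that of the neutrophil and monocyte markers 13.75 in the deficient against 9.82 in the wild-type pool. On the Foxp3Cre array the same means were 12.60 in the deficient pool against 12.52 in the wild-type pool for Treg markers, and 12.97 against 11.95 for neutrophil and monocyte markers. Camp and Itgam were not well above background in the Cd4Cre wild-type pool, nor Cpa3 and Mcpt4 in the Foxp3Cre one, nor Fcer1a in any pool. Of T cell markers, 2 of 5 were lower by 2-fold or more on the Cd4Cre array and 1 of 5 on the Foxp3Cre array. These T cell calls depend on the scaling, as median centring gave 1 lower and 1 higher for Cd4Cre and 0 lower and 2 higher for Foxp3Cre. Of mast cell markers, 1 of 3 (Cd4Cre) and 2 of 3 (Foxp3Cre) were higher by 2-fold or more. The 2 of the Foxp3Cre array, Cpa3 and Mcpt4, were detected in the deficient channel alone. They were at least 5.40-fold and 5.08-fold higher, both bounds. The mean signal of the NK cell markers was 11.82 in the deficient pool against 9.44 in the wild-type pool on the Cd4Cre array, and 10.63 against 10.16 on the Foxp3Cre array. For Cd4Cre it was 14.22 in the deficient against 12.35 in the wild-type pool for CD8 T cell markers, 12.35 in the deficient against 11.23 in the wild-type pool for B cell markers, 14.29 in the deficient against 15.16 in the wild-type pool for T cell markers and 9.63 in the deficient against 8.83 in the wild-type pool for mast cell markers. For Foxp3Cre it was 13.98 in the deficient against 13.93 in the wild-type pool for CD8 T cell markers, 11.95 in the deficient against 12.25 in the wild-type pool for B cell markers, 14.22 in the deficient against 14.47 in the wild-type pool for T cell markers and 9.75 in the deficient against 7.84 in the wild-type pool for mast cell markers. The part of these cells in the AP-1 values was not tested, and in pooled RNA fewer cells of a type and less RNA per cell cannot be told apart. By its brightest probe, no heat shock gene of 6 passed 2-fold on the Cd4Cre array, but with the mean over probes 2 were lower by as much, and other probes read -1.80 for Dnajb1, -1.65 for Hspa8 and 1.12 for Hspa1b. Of the same 6, the Foxp3Cre array had 2 higher by 2-fold or more, the near-identical pair Hspa1a (2.40) and Hspa1b (2.08), whose probes may read each other's transcript. With median centring 4 of 6 heat shock genes were higher by 2-fold or more there.

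Fosb had the lowest mean ratio of the members, and the genes nearest to it by the distance between pairs of log2 ratios, over 2 arrays and 12440 genes well above background in both channels of both, were Dusp4 (distance 0.177, ratios -2.86 and -0.65), Ecm1 (0.198, -3.01 and -0.91), Itga6 (0.233, -2.91 and -0.51), Sp6 (0.331, -2.71 and -0.60) and Lrig1 (0.34, -3.30 and -0.92). With 2 arrays this likeness says no more than that the pairs of values are close.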

How the data were processed

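Each array compared amplified RNA of a deficient pool (Cy5) with a wild-type pool (Cy3), per the labels. Per the file headers, the scanner images were quantified by Feature Extraction, version 10.5.1.1 (Cd4Cre) or 10.7.3.1 (Foxp3Cre; 10.5.1 in the submitters' processing notes), with probe coordinates on mm9. The authors deposited, per spot, mean and background intensity in each channel and the software's background-subtracted, detrended and dye-normalised log10 ratio with its error. The deposited value table equals that log10 ratio (they differ by 0 at most) and was not used further.

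From the intensities, background was corrected with normexp (offset 50) and log2 ratios were normalised by loess within each array, giving control spots no weight, using limma 3.58.1 (R 4.3.3). Outlier-flagged spots (137 and 155) were dropped and a probe's spots averaged. Signals per pool are the channel values after loess and Aquantile. Each gene's brightest probe stood for it, and detection meant a signal well above background in at least 1 channel. Members were matched by the file's gene name (11 probes). Other probes were named by a RefSeq table of GRCm38.p6: 24833 by accession, 6045 by symbol and 1810 by synonym, while 8475 kept the file's name. Promoters are from RefSeq (8 members matched).

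The limma fit was intercept only over 14374 genes. Ratios were simulated for this fit (20 draws, 200 changed genes), with the same true change on both arrays. The median recovery was 4% at a true fold of 2, 67% at 4 and 99% at 8. A median of 9.06% of calls were false, above the nominal level. Recovery of a change that differs between the arrays was not simulated. These shares therefore do not apply to Fos, which read -3.14 for Cd4Cre and 0.03 for Foxp3Cre. The smallest adjusted p in the data was 0.0954.

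The members and lists were chosen with earlier results of these data known. Named are the members, Bcl11b, Foxp3, up to 4 genes per list and array past 2-fold by size, and the 5 genes nearest to the member whose mean ratio is largest in size; the comparison of the wild-type pools was added after the values were seen. Alternatives were no background subtraction, offset 10, median centring, the software's ratio, the mean over probes, the dim-probe filter dropped or made stricter, flagged spots kept, other probes and an intensity trend. The number of arrays, 1 per Cre system, limits the precision. Of the sequence tables, only the promoters were used here.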

Additional observations from a re-analysis of the deposited data

Results flagged for a closer look

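Members with a ratio of opposite sign on the arrays were marked for a closer look; the difference between the arrays was not tested, as each Cre system has 1 array. In the Cd4Cre and Foxp3Cre comparisons Fos read -3.14 and 0.033, and Jun read -2.30 and 0.034. With loess the Foxp3Cre value of both genes is within the software's error of 0, but with median centring Fos read 0.59 there, beyond it. Fosl2 read -0.85 for Cd4Cre and 0.65 for Foxp3Cre, each beyond the software's error at its brighter probe. Batf read 0.0054 for Cd4Cre, within that error, and -0.36 for Foxp3Cre.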

How the results depend on the processing

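The arrays were processed in 8 further ways, not all of which could move the lower values of Fos, Fosb, Jun and Atf3 on the Cd4Cre array. These values kept their sign and stayed past 2-fold without background subtraction, with the smaller offset, with median centring and with the software's ratio. Keeping flagged spots could move Fos and Jun alone, and both stayed past 2-fold. The filter changes leave ratios as they are, and the mean over probes does so for these genes, which have 1 probe each. Median centring moved the median of all detected genes by 0.12 on the Cd4Cre array and by 0.25 on the Foxp3Cre array. With it, the members' median was -1.61 on the Cd4Cre array and turned to 0.25 on the Foxp3Cre array, where 0 members were at least 2-fold lower. With it, Junb (0.24) and Jund (0.26) reversed on the Foxp3Cre array, and the means over both arrays of Junb (0.091) and Batf (0.69) reversed. With the software's ratio 1 member, Fosl2, was at least 2-fold higher on the Foxp3Cre array. With the mean over probes 1 member was at least 2-fold lower there. Limma called 311 genes (52 lower, 259 higher) with median centring and 39 (32 lower, 7 higher) where all 4 channels had to be well above background, against 0 in the analysis reported. Of 131 single ratios under the alternatives, 117 moved by less than the software's error. That count includes ratios that could not move. They are all those under the filter changes, those of genes with 1 probe under the mean over probes, and those without flagged spots where such spots were kept. The count is therefore no measure of robustness. Of 512 counts of the other lists, 469 stayed within 1.5 times. They include counts of lists without a gene past 2-fold in either setting, and counts under filter changes, which leave ratios as they are. That share is therefore no measure of robustness either. No paired analysis was possible because each Cre system has 1 array. Fosl1 is limited by signal over background. The split of all genes past 2-fold turned with the scaling, from 1682 lower and 1809 higher to 1319 and 2858 with median centring on the Cd4Cre array, and from 1749 and 446 to 1021 and 2047 on the Foxp3Cre array.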
